A study of Drosophila melanogaster with 6 samples.

Results

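The genes that carry lipid between the tissues of the fly were examined in old and young adults. They are the lipophorin gene Rfabg, the lipid transfer particle gene Apoltp, the lipophorin receptor genes LpR1 and LpR2, and the lipocalin genes NLaz, GLaz and Karl. Members were chosen by gene symbol. Of the 8 symbols looked for, 7 are in the deposited table, since Rfabg and apolpp are names of the same gene in RefSeq and the table uses Rfabg only. These 7 genes, out of 13244 gene labels in the table, are measured by 9 probe sets, 2 each for LpR1 and Karl and 1 for every other gene.

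Whole flies of the isogenic stock y(1), w67c23(2) were compared at 45 days (old age group, labelled aged) and at 3 days (young age group), with 3 biological replicates per age and 1 Affymetrix GeneChip Drosophila Genome 2.0 array per replicate. Both ages were cultured at 20 °C. According to the labels and the methods, each sample pooled 100 females and 100 males, although the results text of the study speaks of females. Samples are named after the columns of the table, young_1 to young_3 and aged_4 to aged_6. Values are GCRMA signals on the log2 scale, on which a difference of 1 is a 2-fold change, and probe sets without signal lie under about log2 4.

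Markers of the male reproductive tract went against the label of mixed sexes. All 9 male accessory gland genes of the marker list stayed at or under log2 2.47 in every sample, and so did 8 testis genes, of which the highest value was 2.40. The remaining testis gene, bam, which is also used in the female germline, reached 9.69. By their brightest probe sets, the 5 female germline genes on the array lay between 10.2 and 14.6. The old and young values below may therefore describe female RNA, and how much male RNA each sample held was not tested. Eggshell genes averaged 12.6, 10.1 and 3.67 in aged_4, aged_5 and aged_6, against 13.7 to 13.8 in the young samples. The sample aged_6 stood apart in this list. Of 7 hemocyte markers, 2 were called lower in old flies by the criteria given below, and the list mean was 5.64 to 5.88 in old and 6.22 to 6.31 in young samples. Groups did not overlap in 3 markers lower in old flies and in 1 higher, Hml (log2 difference 0.69, not called). The other 3 stayed at or under log2 4 in every sample. Medians of the 6 arrays lay between 2.45 and 2.47.

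Insects move fat through the hemolymph on lipophorin, a lipoprotein made by the fat body. Its scaffold is the product of Rfabg, which is cleaved into apolipophorin I and apolipophorin II. The lipid transfer particle, whose large subunit is encoded by Apoltp, is also made by the fat body and loads lipophorin with lipid at the gut. LpR1 and LpR2, which belong to the low density lipoprotein (LDL) receptor family, take part in lipid uptake by tissues such as the ovary. NLaz and GLaz are fly relatives of mammalian apolipoprotein D, small secreted proteins with a lipid-binding pocket that have been linked to stress resistance, and GLaz is made by glia. In a whole-fly sample, fewer cells of a type and less RNA per cell cannot be told apart.

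No lipid carrier gene met all the criteria for a difference between old and young flies. All old samples were above all young samples in Apoltp and NLaz and below them in GLaz, with estimated fold differences of 1.77, 1.5 and -1.32 (negative for lower in old flies), and the values of the age groups overlapped in Rfabg and LpR1. Probe sets were called when the fold difference was above 2, p was under 0.05 and the false discovery rate (FDR, Benjamini-Hochberg over 18769 probe sets) was under 0.15 in limma. None of the 9 lipid carrier probe sets was called, against 6.41% of all probe sets tested, 3.45% higher and 2.96% lower in old flies. The methods' t-test also called none at a fold above 2 and an unadjusted p under 0.05. In limma 3 of the 9 had an unadjusted p under 0.05, and the share of all probe sets at that p alone was not computed. Without the fold criterion, the same 3 of the 9 passed, Apoltp and NLaz higher and GLaz lower, and 20.8% of all probe sets passed the same rule (11.6% higher and 9.17% lower). In 5 of the 9 probe sets the values of the age groups did not overlap, 4 higher and 1 lower in old flies. Groups did not overlap in 28.7% of all probe sets, 16.1% higher and 12.6% lower.

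**Figure D1:**
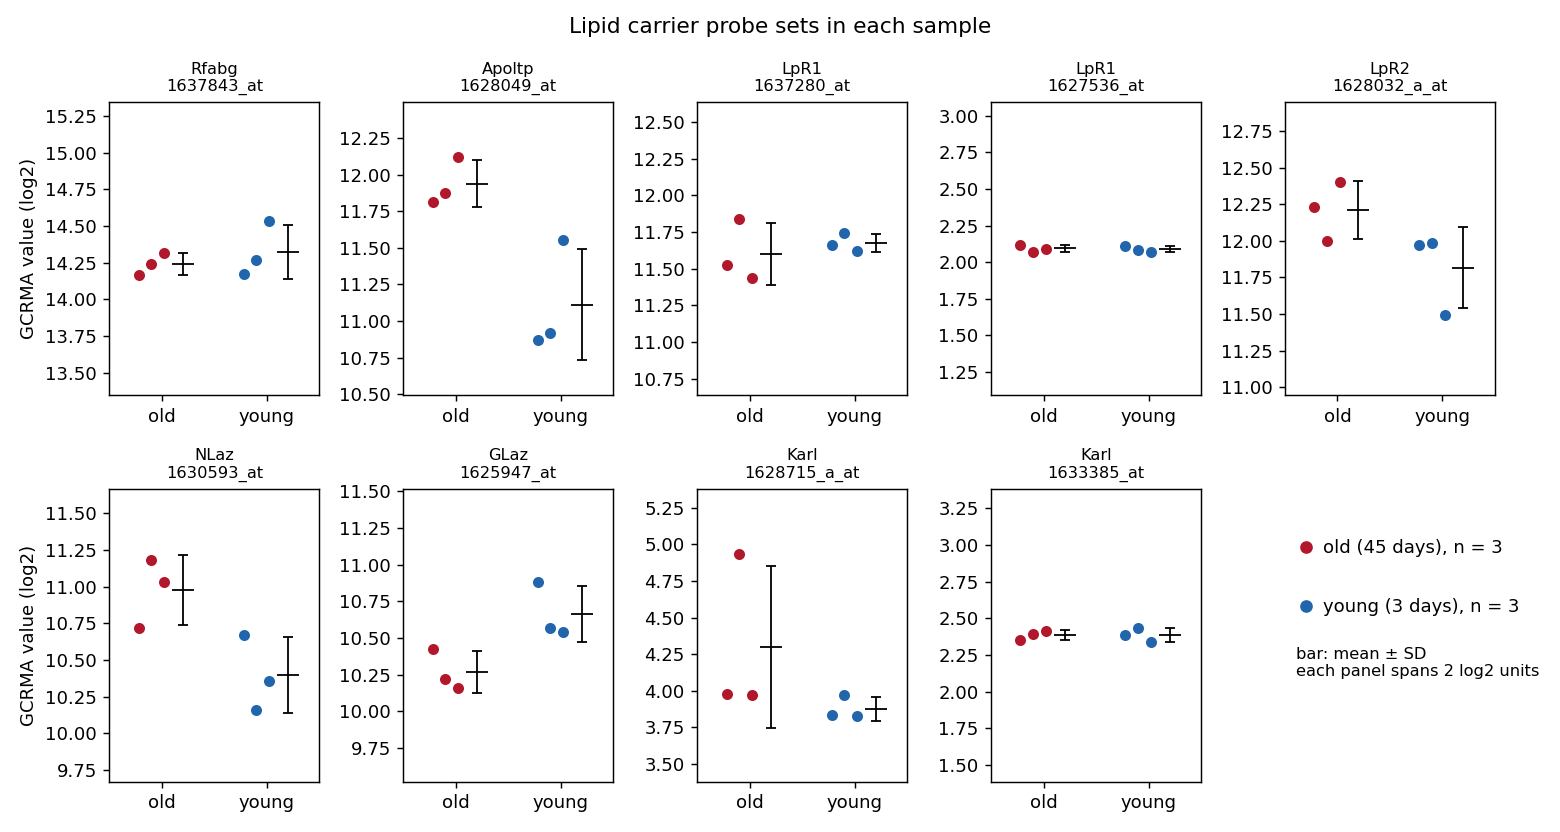
GCRMA values (log2) of the 9 lipid carrier probe sets in each old (red, left) and young (blue, right) sample, with the mean and SD of 3 samples beside the points, and every panel spanning 2 log2 units around its own centre. Old and young values are apart for Apoltp, NLaz and GLaz, nearly touch for LpR2 and the brighter Karl probe set, and overlap for Rfabg, LpR1 and the dimmer Karl probe set.

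Rfabg (FBgn0087002), the lipophorin scaffold, was at 14.16, 14.24 and 14.32 in aged_4, aged_5 and aged_6, and at 14.17, 14.27 and 14.53 in young_1, young_2 and young_3. The groups overlapped, and the highest sample was a young one. Means were 14.24 ± 0.08 in old and 14.33 ± 0.19 in young samples (SD, n = 3 each), a log2 difference of -0.08 with a 95% interval of -0.36 to 0.19 (FDR 0.957, limma). The interval lies within 2-fold in both directions, and also covers 0.

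Apoltp (FBgn0032136) had the largest difference of the 7 genes by their brightest probe sets. Its values were 11.82, 11.88 and 12.12 in aged_4, aged_5 and aged_6, against 10.87, 10.92 and 11.55 in young_1, young_2 and young_3. All old samples were above all young samples, and young_3 lay between the other young samples and the old ones. Means were 11.94 ± 0.16 in old and 11.11 ± 0.38 in young samples, a fold difference of 1.77. The log2 difference of 0.82 had a 95% interval of 0.26 to 1.39 (FDR 0.0850, limma), which takes in a 2-fold change. Leaving out young_3 changed the outcome. Without it the log2 difference was 1.04 with an FDR of 0.0175, and Apoltp was called. With any other sample left out it was between 0.70 and 0.89 and the FDR was between 0.165 and 0.245. Adjusted over all probe sets, the methods' t-test gave 0.161.

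Apoltp was also set against Rfabg on the same array. With the young mean set to 0, the log2 ratio of Apoltp to Rfabg was 0.86, 0.85 and 1.02 in aged_4, aged_5 and aged_6, and -0.09, -0.14 and 0.23 in young_1, young_2 and young_3. The groups did not overlap, and young_3 was nearer to the other young samples than in Apoltp alone. The difference was 0.91 (exact permutation test, two-sided, p = 0.1), and 0.1 is the smallest p that 3 against 3 samples allow. Apoltp alone already separated the groups, and Rfabg had a log2 difference of only -0.08. The ratio thus largely restates the Apoltp difference and is no independent support for it. This ratio and the ratios of LpR2 to LpR1 and of NLaz to GLaz were chosen after the values were seen, and p was 0.15 after adjustment over these 3.

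**Figure D2:**
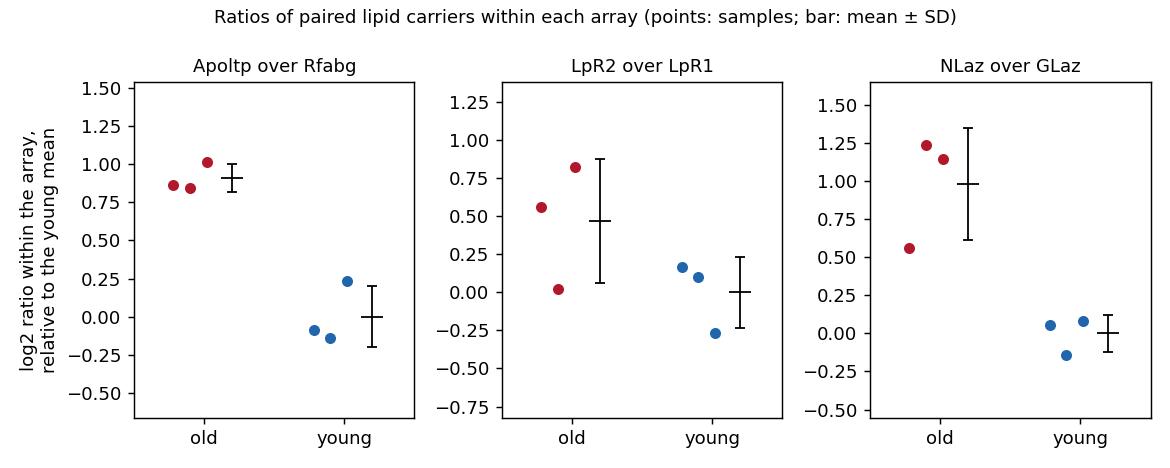
Log2 ratios of paired lipid carriers on the same array, relative to the young mean, in old (red, left) and young (blue, right) samples, with mean and SD. Old and young samples are apart for Apoltp over Rfabg and for NLaz over GLaz, and overlap for LpR2 over LpR1.

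Genes of the larval fat body, whose cells persist for some days in the newly emerged adult, moved with age in the same samples. Fbp2, a larval fat body protein, was at 2.77, 1.98 and 1.99 in aged_4, aged_5 and aged_6, against 8.48, 8.09 and 10.56 in young_1, young_2 and young_3. Of the 8 genes in the fat body list, 3 were called lower and 1 higher by their brightest probe sets. By the same probe sets, groups did not overlap in 5 genes lower and 3 genes higher in old flies. The larval storage protein gene Lsp1gamma had a fold difference of -27.3 (FDR 0.00539, limma). The Fbp1 probe set that carries no other gene name had one of -48.6 (FDR 0.00565, limma), whereas a brighter probe set shared with CG5335 was not called. In the brighter probe set all old samples were above all young ones (log2 difference 0.38, FDR 0.0145, limma). Lsp2 did not pass, with 10.69, 8.71 and 9.53 in the old samples and 10.80, 11.14 and 13.60 in young_1, young_2 and young_3. In Fbp2, Lsp2, Lsp1gamma and Fbp1, as in Rfabg and Apoltp, young_3 was the highest of the young samples. The old samples did not share an order. Among them aged_4 was the highest in Fbp2, Lsp2, Lsp1gamma and the dimmer Fbp1 probe set, but the lowest in Rfabg and Apoltp. A high young_3 was also seen in other genes, such as ninaD and Acbp6, whereas in LpR2 young_3 was the lowest young sample. The mean over the list ran from 7.08 to 7.63 in old samples, and from 9.08 to 10.1 in young samples with young_3 at the top. In old samples Fbp2, Lsp1gamma and the dimmer Fbp1 probe set were all under log2 4, where the size of a fold depends on the low end of the scale. With values under log2 4 raised to 4, an alternative chosen after seeing the data, all 3 were still called. The fold differences were then -33.0 for Fbp2, -9.08 for Lsp1gamma and -15.7 for the dimmer Fbp1 probe set. The fat body gene takeout (to) was called higher (2.06-fold, FDR 0.0564, limma), and young_3 was the lowest of its young samples. The part of the larval fat body in the young Rfabg and Apoltp values was not tested.

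**Figure D3:**
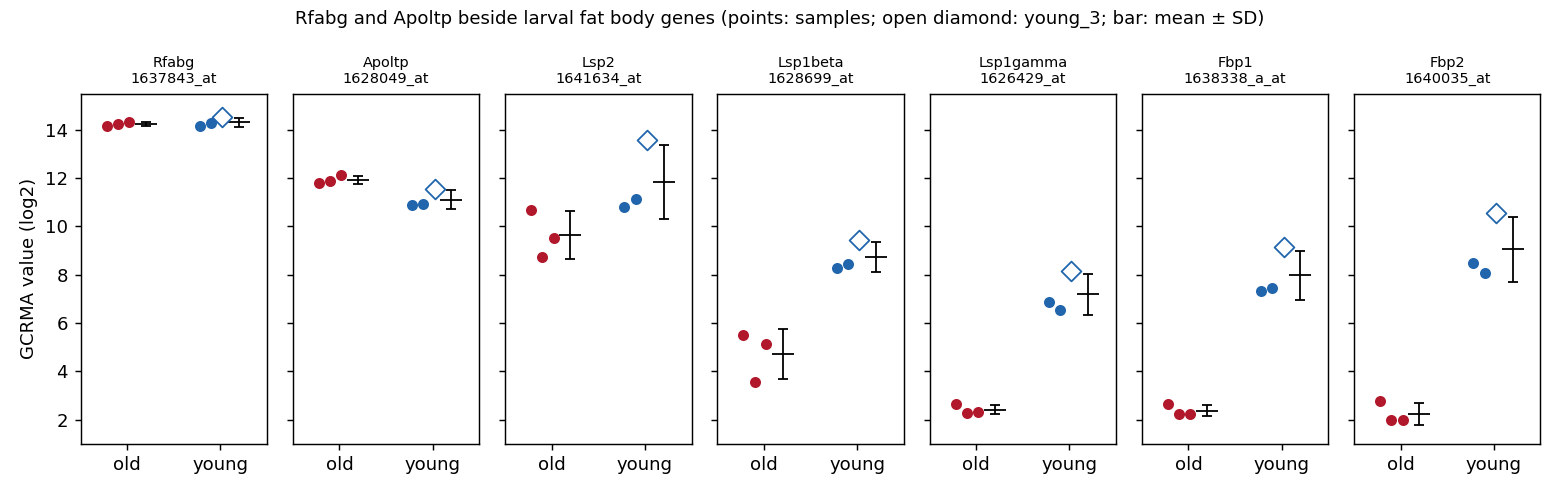
GCRMA values (log2) of Rfabg, Apoltp and 5 larval fat body genes in old (red, left) and young (blue, right) samples, with young_3 drawn as an open diamond and mean and SD beside the points. Fbp1 is drawn by the probe set that carries no other gene name, and its brighter probe set, higher in old samples, is not drawn. All old values of the larval genes as drawn lie below the young ones and young_3 is their highest sample, whereas Rfabg lies between 14.16 and 14.53 in both age groups.

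Neither lipophorin receptor was called. LpR1 (FBgn0066101) was at 11.53, 11.84 and 11.44 in aged_4, aged_5 and aged_6 and at 11.66, 11.74 and 11.62 in young_1, young_2 and young_3 by its brighter probe set. Old values lay on both sides of the young ones, with means of 11.60 ± 0.21 in old and 11.67 ± 0.06 in young samples (log2 difference -0.07, 95% interval -0.37 to 0.23, limma). Its dimmer probe set stayed between 2.07 and 2.12 in all samples and gave no measurable signal.

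LpR2 (FBgn0051092), which lies next to LpR1 on the chromosome in the RefSeq annotation of Release 6, was at 12.23, 12.002 and 12.40 in aged_4, aged_5 and aged_6, against 11.97, 11.98 and 11.50 in young_1, young_2 and young_3. The groups did not overlap, but aged_5 and young_2 were only just apart. The log2 difference was 0.39 with a 95% interval of -0.07 to 0.86 (FDR 0.292, limma), so LpR2 missed the criteria and a 2-fold change lies outside its interval. Without young_3 the difference was 0.23. The log2 ratio of LpR2 to LpR1, relative to the young mean, was 0.56, 0.02 and 0.82 in the old samples and 0.17, 0.10 and -0.27 in the young samples, and the groups overlapped (exact permutation p = 0.3, two-sided). A difference between the receptors in their change with age was thus not shown at this number of arrays. No probe sequence was used here, so hybridization of the transcripts of these related genes to each other's probes was not tested.

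The lipocalins related to apolipoprotein D had differences of opposite sign, and neither was called. NLaz (FBgn0053126) was at 10.72, 11.18 and 11.03 in aged_4, aged_5 and aged_6, against 10.67, 10.16 and 10.36 in young_1, young_2 and young_3. The groups did not overlap, although aged_4 was close to young_1. Means were 10.98 ± 0.24 in old and 10.39 ± 0.26 in young samples, a fold difference of 1.5 (log2 difference 0.58, 95% interval 0.10 to 1.06, FDR 0.134, limma).

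GLaz (FBgn0033799) was at 10.43, 10.22 and 10.16 in aged_4, aged_5 and aged_6, against 10.88, 10.56 and 10.54 in young_1, young_2 and young_3. All old samples were below all young ones. Means were 10.27 ± 0.14 in old and 10.66 ± 0.19 in young samples, a fold difference of -1.32 (log2 difference -0.40, 95% interval -0.72 to -0.07, FDR 0.131, limma). Beside this, the 6 glial markers had a mean of 8.34 to 8.83 in old and 8.20 to 8.58 in young samples, and 1 of them, moody, was called higher in old flies. Without the fold criterion nrv2 (log2 difference -0.58, FDR 0.00628, limma) and Eaat1 (-0.54, FDR 0.149, limma) also passed, both lower in old flies. Of the markers that did not pass, repo (0.92) and wrapper (0.59) were higher in old flies and alrm (-0.36) was lower. Groups did not overlap in 4 of the 6 markers, 2 higher and 2 lower. The part of glia in the GLaz value was not tested.

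On the same array, the log2 ratio of NLaz to GLaz relative to the young mean was 0.56, 1.23 and 1.14 in aged_4, aged_5 and aged_6, and 0.06, -0.14 and 0.08 in young_1, young_2 and young_3. The groups did not overlap and differed by 0.98 (exact permutation p = 0.1, two-sided, the smallest possible, and 0.15 after adjustment over 3 ratios). This separation was fixed in advance, since all old samples were above all young ones in NLaz and below them in GLaz. The ratio therefore adds no support to the differences of the single genes. For the FDR of the single genes 1 sample mattered. With a sample left out, NLaz stayed under an FDR of 0.15 only without young_1 or aged_4, and GLaz only without aged_4. Adjusted over all probe sets, the methods' t-test gave 0.225 for NLaz and 0.221 for GLaz.

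Karl (FBgn0030334), the third lipocalin, gave little signal. Its brighter probe set was at 3.98, 4.93 and 3.97 in aged_4, aged_5 and aged_6, against 3.83, 3.97 and 3.82 in young_1, young_2 and young_3. Only aged_5 stood above log2 4, and the separation of the groups rested on a gap between aged_6 and young_2 that was far smaller than the spread within either group. The log2 difference was 0.42 (95% interval -0.34 to 1.18, FDR 0.577, limma) and 0.10 without aged_5. Its dimmer probe set was between 2.34 and 2.43 in all samples.

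**Figure D4:**
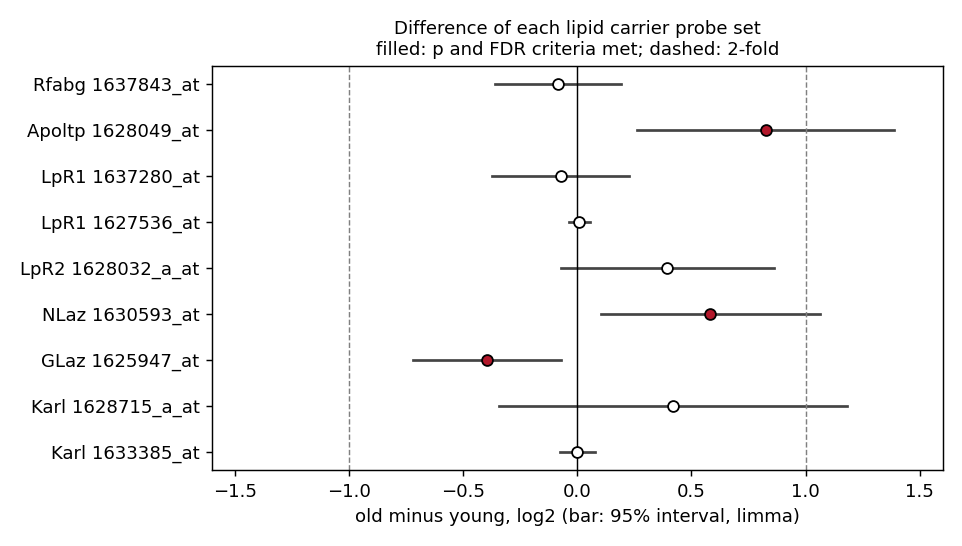
Log2 difference, old minus young, of each lipid carrier probe set with its 95% interval from limma; filled points passed the p and FDR criteria and dashed lines mark a 2-fold change. In 6 of the 9 probe sets the whole interval lies within 2-fold, and those of Apoltp, NLaz and the brighter Karl probe set extend past it on the higher side. The 6 include the dimmer LpR1 and Karl probe sets, which stayed under log2 4 in every sample, so their narrow intervals do not bound a change.

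Genes that work beside these carriers were described from lists of 47 genes, each by its brightest probe set. Of these, 12 were called, 7 higher and 5 lower in old flies, which is 25.5% against 6.41% of all probe sets. These shares are not of like units. The listed genes stand by their brightest probe set, whereas the share of all probe sets includes dim ones, and 56.0% of all values lie under log2 4. The lists were also chosen with earlier results of these data known. The larger share of calls is therefore no evidence that lipid handling genes change more often than others. The median log2 difference over the 47 genes was -2.87e-03, against 8.17e-04 over all probe sets tested. At the low end of the scale, 7 of the 47 genes had both group means under log2 4.

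Mtp, the microsomal transfer protein that loads lipid on Rfabg inside the fat body, was at 11.58, 11.60 and 11.61 in aged_4, aged_5 and aged_6, and at 11.77, 11.42 and 11.69 in young_1, young_2 and young_3. Like Rfabg, it overlapped between the groups (log2 difference -0.03, 95% interval -0.27 to 0.22, limma). The lipoprotein-like gene cv-d, which is known for its part in wing vein signalling, was called higher. It was at 9.42, 9.49 and 10.14 in the old and at 7.46, 7.98 and 8.55 in the young samples, a fold difference of 3.23 (FDR 0.0450, limma), with young_3 again the highest of the young.

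Of 7 genes of the LDL receptor family and its chaperone, mgl was called lower. This large endocytic receptor, named megalin in mammals, had a fold difference of -2.25 (FDR 0.0210, limma) by its brightest probe set. A dimmer probe set gave -1.69 and was not called, nor was another without signal. The yolk protein receptor yl was at 12.37, 12.31 and 12.19 in aged_4, aged_5 and aged_6, against 13.20, 12.93 and 13.04 in young_1, young_2 and young_3. It did not reach the fold criterion (-1.70, FDR 0.00814, limma). Its ligands, the yolk proteins, had log2 differences of -0.21 (Yp1), -0.69 (Yp2) and -0.60 (Yp3), with no overlap between the groups and no call.

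Among 14 genes of the CD36 family of scavenger receptors, 1 was called higher and 3 lower. Snmp1, a sensory neuron membrane protein used in pheromone detection, was at 9.74, 10.81 and 9.83 in old samples and at 5.39, 5.22 and 4.97 in young samples, 30.6-fold higher (FDR 0.00259, limma), or 17.5-fold with values under log2 6 raised to 6. NinaD, which takes up carotenoids for vision, was at or under 2.05 in all old samples and at 6.66, 6.78 and 7.29 in young_1, young_2 and young_3. Its fold difference of -29.5 (FDR 7.47e-04, limma) depends on the low end of the scale, with -7.51 after values under log2 4 were raised to 4 and -1.88, no longer called, after values under log2 6 were raised to 6. CG10345 (-2.55) and CG2736 (-2.15) were also called. CG2736 lost its call without young_2, young_3, aged_5 or aged_6, and CG10345 lost it when values under log2 6 were raised to 6.

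Of 12 genes for fatty acid and acyl-CoA binding or import inside the cell, 3 were called and all 3 were higher, each encoding an acyl-CoA binding protein. Acbp6 (CG15829 in the table) was at 12.57, 12.79 and 12.86 in aged_4, aged_5 and aged_6, against 3.53, 6.91 and 7.59 in young_1, young_2 and young_3. Old samples were close together and young ones far apart, so the fold difference of 106 (FDR 0.0248, limma) became 44.8 without young_1 and 183 without young_3. It was 61.3 with array weights and 59.8 with values under log2 6 raised to 6. Acbp3 (CG8628) was at 11.23, 11.18 and 11.51 in old and at 6.98, 8.28 and 9.60 in young samples, an 8.12-fold difference (FDR 0.0577, limma). It lost its call without young_2, aged_5 or aged_6, and the fold difference was 12.8 without young_3 and 5.17 without young_1. Acbp2 (Dbi) was 2.27-fold higher (FDR 0.0485, limma) and lost its call without aged_6. The fatty acid binding protein gene fabp was at 14.73 ± 0.01 in old and 14.73 ± 0.02 in young samples.

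Beyond the carriers, the lipocalin list held 2 genes. CG5399, whose probe set also carries the name of a Drosophila yakuba gene, was called higher at 14.32, 14.43 and 14.38 in aged_4, aged_5 and aged_6, against 13.14, 13.33 and 13.24 in young_1, young_2 and young_3. The fold difference was 2.21 (FDR 0.00132, limma), and the groups were far apart against an SD of 0.06 in old and 0.09 in young samples. CG31659, the neighbour of NLaz in the RefSeq annotation, was at 2.26 in both age groups.

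Of 7 genes of fat storage and its release, Akh was called higher and Lsd-1 (plin1) lower. Akh, the adipokinetic hormone that mobilizes fat, was at 7.29, 8.31 and 7.48 in old and at 3.99, 4.46 and 4.59 in young samples, 10.2-fold higher (FDR 0.00588, limma) and 3.23-fold with values under log2 6 raised to 6. Lsd-1, the perilipin on the surface of lipid droplets, had a fold difference of -2.54 (FDR 0.0121, limma). The triglyceride lipase gene bmm had a fold difference of 1.42 and the diacylglycerol acyltransferase gene mdy one of -1.44, and neither reached the fold criterion.

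**Figure D5:**
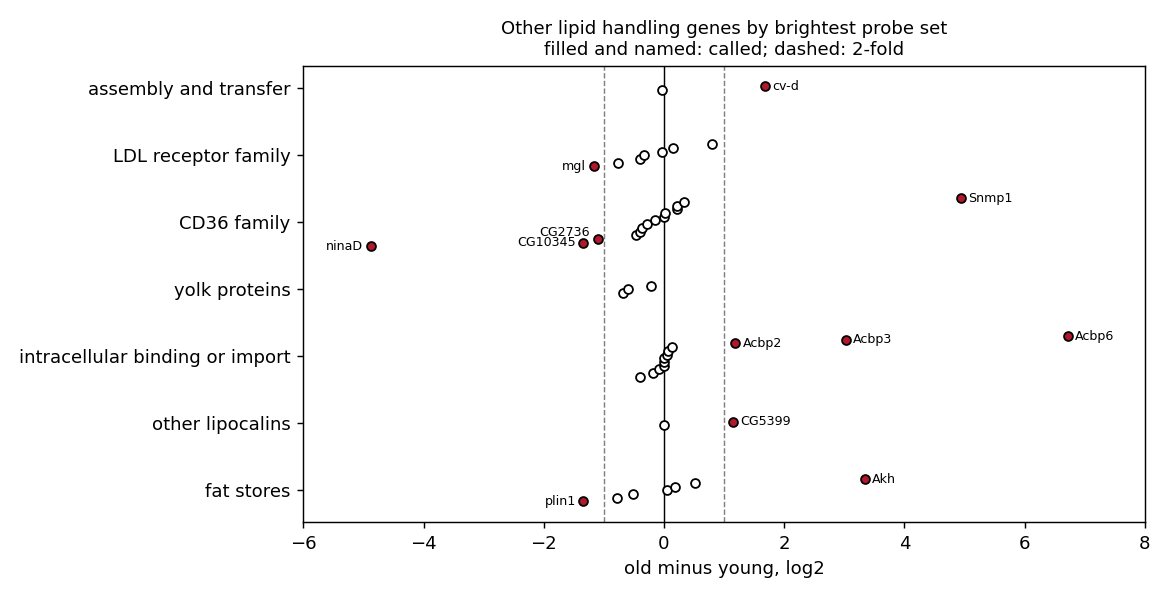
Log2 difference, old minus young, of 47 further lipid handling genes by their brightest probe set, grouped by list; filled and named points were called and dashed lines mark a 2-fold change. The 7 genes called higher and the 5 called lower spread over 6 of the 7 lists, and no yolk protein gene was called.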

How the data were processed

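The authors imported the scans into Partek 6.5 and normalized them with GCRMA, and the deposited table holds the resulting log2 values for 18952 probe sets. GCRMA corrects the background and brings the arrays to a common distribution, which compresses low signals and hides any change of total RNA. The scans were not analysed here. Without the 183 control probe sets, 18769 were tested with limma 3.58.1 in R 4.3.3, with age group as the only term, and p was adjusted by the Benjamini-Hochberg method. The methods' SAM was not run, since limma stands in its place, and their t-test was run with equal variances. The fits were tested on simulated data. Old columns carry numbers that match no sample title, so they were used as old samples without a replicate number. No batch is given in the labels.

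Named are all probe sets of the members and, of each list, up to 4 called genes by the size of the change. Other genes named were chosen after their values were seen. Members and lists were chosen with earlier results of these data known. The brightest probe set has the highest mean over all samples. RefSeq (Release 6) served for gene names and neighbours, and gave a match for 2 listed genes under other names. The germline gene vas was not matched. Since no member was called, no genes of like profile were sought. Alternatives covered the test, thresholds, variance prior, array weights, scaling, low values, probe set averaging and each sample left out. The number of arrays limits the precision.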

Additional observations from a re-analysis of the deposited data

How the results depend on the processing

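Of 152 comparisons of a single lipid carrier probe set with its value in 18 alternatives, 138 kept their direction and their side of the criteria, 4 passed newly and 10 turned in sign, all 10 in Rfabg, LpR1 and the dimmer Karl probe set. The lipid carrier count was 0 and became 3 without the fold criterion, and was between 0 and 1 with each sample left out, where the 1 was Apoltp without young_3. The same removal of the fold criterion moved the count over all probe sets to 3900 and that of the lipid handling lists to 23, of which 9 were higher and 14 lower. With values under log2 6 raised to 6, 792 probe sets were called. With each sample left out, between 993 and 1157 probe sets and between 9 and 12 listed genes were called.

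With each sample left out, the log2 difference of Rfabg ran from -0.160 to 0.0197 and turned without young_3. That of the brighter LpR1 probe set ran from -0.192 to 0.00688 and turned without aged_6. The dimmer LpR1 probe set ran from -0.00457 to 0.0187 and turned without young_3 or aged_4. The dimmer Karl probe set ran from -0.0227 to 0.0229 and turned without young_1, young_3, aged_5 or aged_6, as well as with array weights (-0.0460) and with arrays centred on their median (-1.33e-04). Dim probe sets gave no value of their own where values under log2 4 or 6 were raised, under the filter of log2 6, or where probe sets of a gene were averaged. No paired analysis was possible because the old columns carry numbers 4 to 6, which match no replicate number of the labels, so the replicate block was not run.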
